A study of Mnemiopsis leidyi with 50 samples.

Results

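Embryos of the ctenophore *Mnemiopsis leidyi* at 13 and 14 hours post fertilization (hpf) were compared with embryos at 15 and 16 hpf. The comparison used 14 of the 50 single embryos of the time course, 7 in each window. The earlier window held embryos 61, 69 and 76 at 13 hpf and embryos 62, 70, 77 and 84 at 14 hpf, and the later window held embryos 63, 71 and 85 at 15 hpf and embryos 64, 72, 79 and 86 at 16 hpf. Embryos were placed by the developmental time in their labels. Embryo 59 at 13 hpf was left out because its library belongs to another group by how its reads were assigned (3.33% ambiguous and 47.9% not aligned, against 1.42–2.04% and 56.7–62.6% in the 14 embryos), and embryo 78 at 15 hpf was left out because it had only 18731 counts. The labels name no treatment and no genetic change. They do not say whether embryos came from 1 spawning, so the tests measure the spread between these embryos, and each sample was a whole embryo.

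Ctenophores catch prey with tentacles that carry colloblasts, secretory cells that release an adhesive on contact. The tentacles of the cydippid larva grow from a thickened epithelium, and colloblasts are replaced throughout life from the tentacle bulb at their base. The study asked which genes belong to colloblasts and tentacles, and used the time course to follow them through tentacle formation. Colloblast candidates are genes absent from lineages without colloblasts, and tentacle candidates are genes absent from lineages without tentacles. Both are known by their ML2.2 protein model identifiers and, in part, by protein domains. In a whole embryo, fewer cells of a type and less RNA per cell cannot be told apart.

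Values are counts per protein model from CEL-Seq, which tags the RNA of every embryo with a barcode and reads only 3′ ends. Levels are given as CPM, in which the counts of every embryo are scaled to the same total. Totals ranged from 492757 to 2079694 counts at 13–14 hpf and from 962576 to 1495537 at 15–16 hpf (exact permutation test of mean log10 totals, two-sided p = 0.643, 3432 permutations). With all embryos thinned to 492757 counts, 10055–11265 models had a count in the earlier window and 10099–10808 in the later one (mean difference −361 models, exact permutation p = 0.0717). Of the 16548 models, 14813 had a count in these embryos and 6882 had enough counts to be tested. Models are said to have risen or fallen where the adjusted p of edgeR's quasi-likelihood test was under 0.05 over all models tested, and changes are given as the log2 fold change of 15–16 over 13–14 hpf with its standard error (SE).

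Few models passed the test between the windows, and most of those that passed rose. Of the 6882 models, 57 changed (0.828%), of which 46 rose (0.668% of those tested) and 11 fell (0.16%). At least a 2-fold change was seen in 38 of the models that rose (0.552% of those tested) and in 9 that fell (0.131%). At an unadjusted p under 0.05, 485 models were higher (7.05%) and 414 lower (6.02%). The median log2 fold change over all models was −0.02. The last model inside the threshold had an adjusted p of 0.0489 and the first outside one of 0.0506. The counts depended on single embryos: 28 models rose without embryo 64 and 29 without embryo 61 or embryo 76, while 4 fell without embryo 61, 64 or 79, 5 without embryo 69 or 76, 6 without embryo 72 and 19 without embryo 85. At least 2-fold, 25 rose without embryo 76, 4 fell without embryo 61, 64 or 79, 5 fell without embryo 69 or 76, and 16 fell without embryo 85. In all 14 fits that left out 1 embryo, 27 of the 46 were again called as risen and 3 of the 11 as fallen. DESeq2 on the same embryos called 126 models as risen and 38 as fallen.

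**Figure D1:**
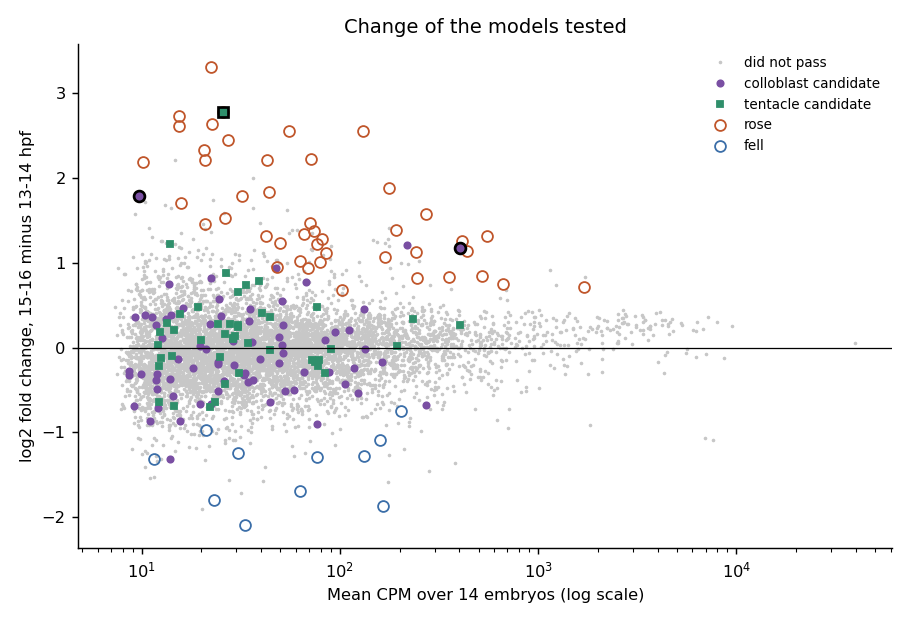
Log2 fold change of 15–16 over 13–14 hpf against mean CPM over the 14 embryos (log scale) for the 6882 models tested, 1 point each. Open orange rings mark the models that rose and open blue rings those that fell, and the 3 candidates that rose, 2 colloblast candidates (purple) and 1 tentacle candidate (green), have black edges.

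The models that rose were, except for 1, higher still after 16 hpf. Their log2 fold changes ran from 0.68 to 3.31 (median 1.38), and 13 of the 46 changed at least 4-fold. Their summed level was 3949–6890 CPM (median 4886) at 13–14 hpf and 8705–12374 CPM (median 10650) at 15–16 hpf. In 17 of the 46 the windows did not overlap (22 of all models tested, 0.32%, were higher in every later embryo). In 15 embryos at 17–20 hpf, which entered neither window, 45 of the 46 had a mean above that at 15–16 hpf, against 50.4% of all models tested.

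The 11 models that fell ranged from −2.09 to −0.75 on the log2 scale (median −1.29). Their summed level went from 1033–1643 CPM (median 1279) to 367–741 CPM (median 488). In 4 of them the windows did not overlap (6 of all models tested, 0.0872%, were lower in every later embryo). At 17–20 hpf, 10 of the 11 still had a mean below that at 13–14 hpf, and 5 were above their mean at 15–16 hpf (50.4% of all models tested were). The 11 were picked for a higher level at 13–14 than at 15–16 hpf, which favours later means below the earlier window. The share of all models below their own mean at 13–14 hpf was not worked out. None of the 11 is on a list used here, and 43 of the 46 that rose are also outside all of them. The candidate lists used here are not complete. They hold 73 colloblast and 45 tentacle candidates among the 6882 models tested. With so few, the lack of a candidate among 11 models says little. None of the 37 tested models with an identifier next to that of a risen model rose (0.668% of all models did). None of 6 next to a fallen model fell (0.16% of all models did). At these shares, groups of this size are too small to show whether neighbours change together.

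The colloblast candidate with the smallest p among those that rose was ML003220a, which matches histone H5, a linker histone that binds the DNA between nucleosomes and was described in bird red blood cells. Its level was 169 CPM in the lowest, 232 in the median and 397 in the highest embryo at 13–14 hpf, and 389, 602 and 646 CPM at 15–16 hpf. The windows overlapped only in that the lowest later embryo (63, at 15 hpf) was just below the highest earlier one (77, at 14 hpf). The log2 fold change was 1.18 (SE 0.20, adjusted p = 0.00813). The hourly means were 190, 303, 532 and 566 CPM from 13 to 16 hpf, and the level was 628, 1186, 897 and 1139.6 CPM at 17, 18, 19 and 20 hpf. The call held in every fit that left out 1 embryo and was lost when embryo 59 of the other library group was added (log2 fold change 1.35, adjusted p = 0.119).

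The other colloblast candidate that rose, ML14871a, has thrombospondin type-1 repeats, immunoglobulin domains and a MACPF domain, the fold of pore-forming proteins such as perforin. Its level was 0, 4.33 and 7.69 CPM (lowest, median, highest) at 13–14 hpf and 9.36, 12.8 and 25.6 CPM at 15–16 hpf. Every later embryo was above every earlier one. The log2 fold change was 1.78 (SE 0.40, adjusted p = 0.0404). These levels rest on few reads, 0 to 12 counts per earlier embryo and 12 to 27 per later embryo. The call was lost without embryo 61, 69, 76, 77, 84, 63, 64, 72, 79 or 86 (adjusted p between 0.0528 and 0.105), though the log2 fold change stayed between 1.63 and 1.97. The mean level was 21.9, 43.3, 15.8 and 46.8 CPM at 17, 18, 19 and 20 hpf.

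The only tentacle candidate that rose was ML16904a, with chitin-binding, immunoglobulin E-set and MD-2-related lipid-recognition domains. Its level was 2.03, 5.42 and 12.0 CPM (lowest, median, highest) at 13–14 hpf and 7.24, 33.2 and 150 CPM at 15–16 hpf. The embryos at 15 hpf overlapped the earlier window, and all 4 embryos at 16 hpf lay above it. The log2 fold change was 2.78 (SE 0.57, adjusted p = 0.022). The highest value came from embryo 64, and without it the log2 fold change was 2.05 and the adjusted p 0.0585. The call was also lost without embryo 61 (adjusted p = 0.0595) or embryo 76 (adjusted p = 0.0548). The hourly means went from 13.5 CPM at 15 hpf to 68.5 CPM at 16 hpf and then stayed between 68.5 and 102 CPM up to 20 hpf.

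**Figure D2:**
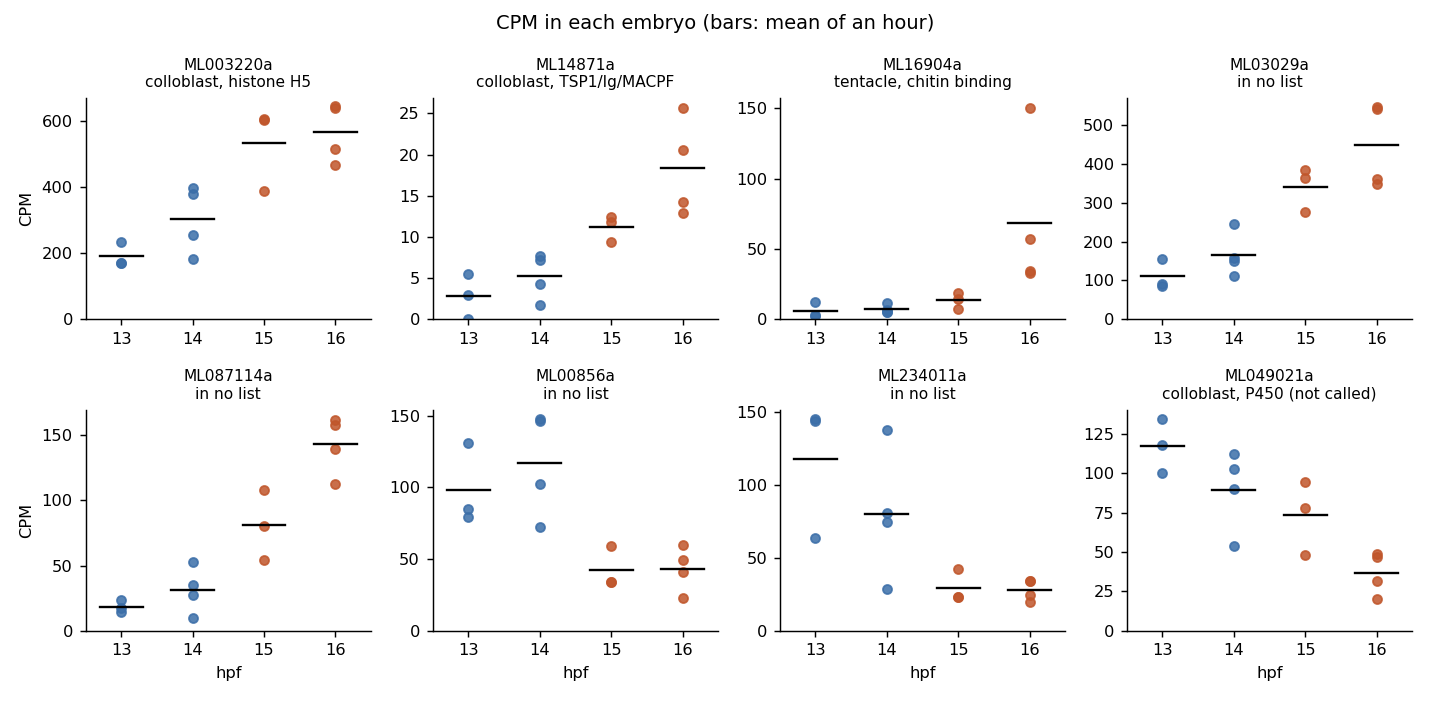
CPM of 8 models in each embryo (points, blue for 13–14 and orange for 15–16 hpf) by hour post fertilization, with a bar at the mean of each hour. The upper row shows the 3 candidates that rose and ML03029a, and the lower row ML087114a, which rose, ML00856a and ML234011a, which fell, and the cytochrome P450 candidate ML049021a, which did not pass the test.

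The colloblast candidates had changes in both directions. The study's full lists hold more models. The candidates used here are those with a match in the study's domain annotation, in some without an InterPro entry, or a place in a cluster. Of 168 such colloblast candidates, 162 had a count and 73 were tested. Of these, 2 rose (0.668% of all models rose), none fell, and 71 did not pass. The fitted change was positive in 31 and negative in 42, with a median log2 fold change of −0.17 against −0.02 over all models. At an unadjusted p under 0.05, 8 were higher and 8 lower (7.05% and 6.02% of all models). The summed level of the candidates was 3396–4422 CPM (median 3821) in the earlier window and 3434–4748 CPM (median 3917) in the later one, with overlap.

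The tentacle candidates had 1 riser among the 45 tested of 147 (12 had no count), against 0.668% of all models. The fitted change was positive in 28 and negative in 17, with a median of 0.11. At an unadjusted p under 0.05, 6 were higher and 1 was lower (7.05% and 6.02% of all models). Their summed level was 2116–2663 CPM (median 2442) at 13–14 hpf and 2327–2807 CPM (median 2532) at 15–16 hpf, again with overlap.

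The study had sorted candidates into clusters by their course over time, on a time course that includes these embryos, so the direction of a cluster is not independent evidence. In the larger colloblast cluster (27 models, 26 tested) no model passed, 7 had a positive and 19 a negative fitted change, the median was −0.30, and at an unadjusted p under 0.05, 6 were lower and 0 higher (6.02% and 7.05% of all models). Its summed level was 1227–2109 CPM (median 1575) in the earlier and 928–1849 CPM (median 1149) in the later window. The later range owed its upper end to embryo 85 at 15 hpf, and the 4 embryos at 16 hpf (1015, 1173, 928 and 937 CPM) were all below every embryo at 13–14 hpf. The smaller colloblast cluster (11 models, all tested) had no model that passed and a median of −0.06, with 4 positive and 7 negative changes.

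Among the tentacle clusters, the larger one (18 models, 17 tested) had no model that passed, 9 positive and 8 negative changes and a median of 0.03. Its summed level was 792–1030 CPM at 13–14 hpf and 714–1011 CPM at 15–16 hpf. In the smaller one (6 models, 5 tested) all 5 fitted changes were positive, with a median of 0.88, and ML16904a alone passed. Its summed level was 54.6–174 CPM (median 101) in the earlier and 155–346 CPM (median 196) in the later window, and only embryo 62 at 14 hpf reached into the later range. In embryo 64, which had the highest sum, ML16904a supplied 150 of 346 CPM.

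**Figure D3:**
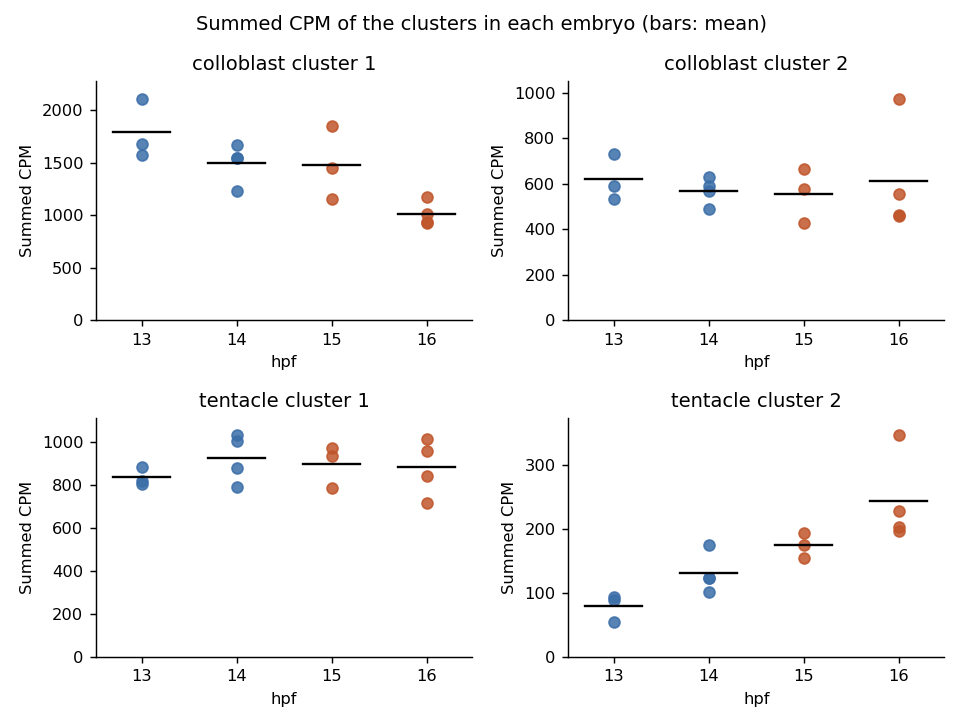
Summed CPM of the members of 4 clusters of candidates in each embryo (points, blue for 13–14 and orange for 15–16 hpf) by hour, with a bar at the mean of each hour. Colloblast cluster 1 was lowest at 16 hpf, the smaller tentacle cluster was at 54.6–92.7 CPM at 13 hpf and 196–346 CPM at 16 hpf, and in the other 2 the hours overlapped.

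The other tested members of the smaller tentacle cluster did not pass. ML01571a has EF-hand domains that bind calcium and a match in a toxin database that is weaker than its match to calmodulin. It was at 9.76, 25.0 and 53.8 CPM (lowest, median, highest) and then 26.0, 45.2 and 85.7 CPM (log2 fold change 0.79, SE 0.34, adjusted p = 0.33). ML01818a, with no domain match given, was at 5.85, 16.3 and 29.9 CPM and then 17.1, 34.1 and 44.7 CPM (0.88, SE 0.29, adjusted p = 0.197). The windows overlapped in both. ML05962a, with immunoglobulin-like and C-type lectin domains, had a log2 fold change of 0.36 (SE 0.21, adjusted p = 0.474). ML154120a, named here after its values were seen, had one of 1.22 (SE 0.47, adjusted p = 0.261) on means of 8.27 and 19.4 CPM.

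**Figure D4:**
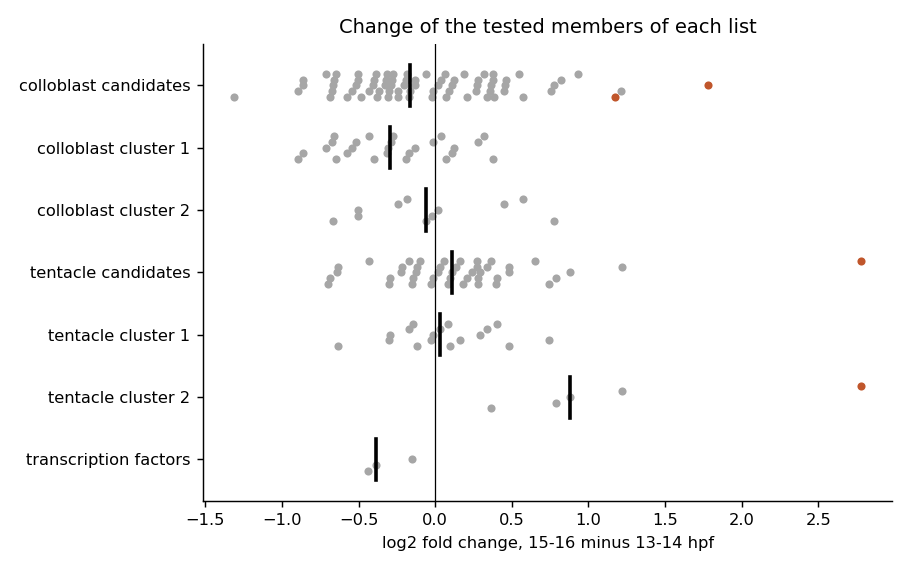
Log2 fold change of 15–16 over 13–14 hpf for the tested members of 7 lists, 1 point per model, with a black bar at the median. Orange points rose and grey points did not pass. The medians are −0.17, −0.30 and −0.06 for the colloblast candidates and their clusters, 0.11, 0.03 and 0.88 for the tentacle candidates and theirs, and −0.38 for the transcription factors.

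The study lists more transcription factors for these cells than the 5 followed here, which are those studied before in this species. Of these 5, 3 were tested and none passed. The nuclear receptor MlNR1 (ML073417a) was at 103, 154 and 198 CPM (lowest, median, highest) at 13–14 hpf and at 86.5, 102 and 144 CPM at 15–16 hpf (log2 fold change −0.38, SE 0.16, adjusted p = 0.305). The homeobox gene MlBsh (ML08269a) was at 36.1, 53.7 and 70.0 CPM and then 26.6, 38.8 and 50.2 CPM (−0.44, SE 0.19, adjusted p = 0.317). Both were lower in the median embryo, and in both the windows overlapped. The homeobox gene MlPRD10a (ML148940a), also a tentacle candidate, was at 60.9, 78.6 and 89.8 CPM and then 45.0, 73.3 and 77.7 CPM (−0.15, SE 0.16, adjusted p = 0.753).

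The other transcription factors followed here had too few counts for the filter. The LIM homeobox gene MlIslet (ML053012a) was at 4.81, 8.12 and 17.1 CPM and then 1.90, 3.67 and 6.69 CPM, lower in the median embryo but overlapping. Tested without the filter, among 14813 models, its log2 fold change was −1.06 (SE 0.45, adjusted p = 0.384). The nuclear receptor MlNR2 (ML305522a), a colloblast candidate, was at 0, 4.36 and 13.9 CPM and then 2.01, 5.14 and 14.3 CPM (0.29, SE 0.60, adjusted p = 0.902), with overlap.

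Among enzymes, both tested cytochrome P450 candidates, members of a family of monooxygenases, had negative changes that did not pass. ML049021a was at 53.6, 102 and 135 CPM (lowest, median, highest) at 13–14 hpf and at 20.0, 48.1 and 94.1 CPM at 15–16 hpf (log2 fold change −0.90, SE 0.26, adjusted p = 0.137). Its hourly means were 118, 89.5, 73.4 and 36.8 CPM from 13 to 16 hpf, lower at each hour, and the windows overlapped through the embryos at 15 hpf and the lowest at 14 hpf. ML12524a had a log2 fold change of −0.52 (SE 0.24, adjusted p = 0.37). DESeq2 called ML049021a as fallen (adjusted p = 0.048).

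Both tested glutaredoxins of the colloblast list, small enzymes that reduce disulfides with glutathione, had positive changes that did not pass. ML047916a was at 31.1, 46.7 and 72.4 CPM and then 48.1, 69.5 and 128 CPM (0.77, SE 0.24, adjusted p = 0.17). ML00694a was at 16.0, 36.7 and 50.0 CPM and then 22.8, 77.8 and 92.5 CPM (0.93, SE 0.33, adjusted p = 0.22). Medians were higher and the windows overlapped in both. Of the alpha carbonic anhydrases, enzymes that hydrate carbon dioxide, ML009152a had a change of 0.45 (adjusted p = 0.509) and ML01591a of −0.41 (adjusted p = 0.666). Of the 4 tested sulfotransferases among the tentacle candidates, 1 had a positive and 3 a negative change, from −0.69 for ML07449a (adjusted p = 0.335) to 0.40 for ML074411a (adjusted p = 0.607). Both tested tentacle candidates of the endonuclease, exonuclease and phosphatase superfamily, ML216338a and ML01383a, had negative changes (−0.64 and −0.22, adjusted p = 0.419 and 0.872), though that of ML01383a was positive from 13 to 16 hpf (0.39) and with 1 coefficient per hour (0.044).

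The following families have domains of secreted and cell surface proteins. All 4 tested sushi-domain candidates, a domain of complement control and adhesion proteins, had small negative changes (−0.31 to −0.19), among them ML04419a at −0.29 and ML090224a at −0.20. Of the 7 tested immunoglobulin-like colloblast candidates, ML14871a rose and 6 had negative changes. The most negative was ML21937a, at 6.63, 22.7 and 33.7 CPM and then 0, 8.02 and 15.4 CPM (−1.31, SE 0.47, adjusted p = 0.234), with overlap. The type D domain of von Willebrand factor, found in mucins and clotting proteins, is present in 3 tested colloblast candidates, with changes from −0.40 to 0.38, among them ML01537a at 0.38 and ML015615a at −0.31, and in 1 tested tentacle candidate, ML14247a. The other MACPF candidate tested, ML03672a, had a change of 0.38 (SE 0.51, adjusted p = 0.809), with a negative sign by limma voom and from 13 to 16 hpf (−0.11).

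On the immunoglobulin-like family list of the tentacle candidates, which does not hold the E-set model ML16904a, 4 were tested, with 3 positive changes, the highest of them 0.74 for ML14247a (SE 0.37, adjusted p = 0.402), which also matches an adhesive protein. In the study ML14247a matched a mucin better. Both tested tetraspanins of the tentacle list, proteins that cross the membrane and gather others around them, had positive changes, 0.34 in ML010519a and 0.48 in ML02593a (adjusted p = 0.533 and 0.294). The tested C-type lectin candidates numbered 3. Besides ML05962a these were ML056965a and ML17013a, which also carry thyroglobulin type-1 domains, with changes of −0.30 (0.25 from 13 to 16 hpf) and −0.64. The ion channel candidates ML07721a and ML17746a, with an ion transport domain, had changes of −0.24 (adjusted p = 0.848) and −0.30 (adjusted p = 0.628). Without embryo 70 or 76 the change of ML07721a was positive (0.055 and 0.013).

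Between the windows, no model on the adhesive, toxin or cnidocyte lists rose or fell. As 0.828% of all models tested changed, the few tested members cannot show whether these lists differ from the rest. From 13 to 16 hpf, the toxin match ML01571a rose. In the study, every model on the adhesive list and all but 1 on the toxin list matched other proteins better. On the list of matches to adhesive proteins of other animals 3 of 9 were tested (median −0.18), and on the list of matches to toxins 4 of 13 (median 0.06). Of the genes that share an orthology group with genes of cnidocytes, the stinging cells of cnidarians, 1 of 7 was tested (−0.18). Of the toxin matches of cell C54, a cell type that the study links to tentacles, 9 of 13 were tested (5 positive and 4 negative, median 0.02). The EF-hand models ML01511a and ML273210a have toxin matches, but better ones to calmodulin or a calmodulin-related protein. They had changes of 0.02 and 0.10, whose signs turned in some alternatives.

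The 4 candidates of each list with the highest mean CPM that did not pass are given next. On the colloblast list these were ML150914a with a PAN/Apple domain (−0.68, SE 0.33, adjusted p = 0.388), ML15994a with a papain-like peptidase domain (−0.17, SE 0.18, adjusted p = 0.739), ML15632a (−0.01, SE 0.14, adjusted p = 0.98) and ML223518a. On the tentacle list they were ML02667a, which matches gamma-glutamyl cyclotransferases that break down glutathione (0.27, SE 0.20, adjusted p = 0.617), ML148942a (−0.02, SE 0.25, adjusted p = 0.985), and ML010519a and ML01511a from above. The signs of ML15632a and ML148942a turned in some alternatives. ML223518a, with no InterPro entry, was at 50.7, 152 and 254 CPM and then 123, 263 and 448 CPM (1.21, SE 0.35, adjusted p = 0.136), with hourly means of 86.6, 174, 242 and 343 CPM. DESeq2 called it as risen (adjusted p = 0.0374). ML46084a of the smaller colloblast cluster had a change of 0.45 (SE 0.29, adjusted p = 0.532).

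Outside all lists, the models with the smallest p are not annotated in the sources used here. ML03029a rose from 85.9, 149 and 244.7 CPM (lowest, median, highest) to 275, 364 and 547 CPM (log2 fold change 1.57, SE 0.22, adjusted p = 0.00419). ML087114a rose from 9.64, 23.5 and 52.4 CPM to 54.2, 113 and 162 CPM (2.22, SE 0.32, adjusted p = 0.00419). In both, every later embryo was above every earlier one, and the level went on to 878 and 341 CPM at 20 hpf.

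ML00856a fell from 72.6, 102 and 148 CPM to 22.9, 40.9 and 59.7 CPM (−1.29, SE 0.24, adjusted p = 0.00948), with no overlap, and was at 20.1–36.6 CPM from 17 to 20 hpf. ML234011a fell from 28.9, 80.8 and 145 CPM to 19.7, 24.7 and 42.5 CPM (−1.69, SE 0.32, adjusted p = 0.011). Embryo 77 at 14 hpf, with 28.9 CPM, lay within the later range. ML234011a did not keep its lower level, with means of 73.7, 11.2, 44.1 and 69.0 CPM from 17 to 20 hpf. All 4 of these models were called in every fit that left out 1 embryo.

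Between neighbouring hours edgeR called no model. In a fit with 1 coefficient per hour, it called 0 models from 13 to 14 hpf, 0 from 14 to 15 hpf and 0 from 15 to 16 hpf. At an unadjusted p under 0.05, 239 were higher (3.47%) and 186 lower (2.7%) in the first of these steps, 142 (2.06%) and 150 (2.18%) in the next, and 223 (3.24%) and 272 (3.95%) in the last. DESeq2 called 0 and 0, then 4 higher and 1 lower, then 3 and 4. Without embryo 69, edgeR called 3 models from 13 to 14 hpf, and without embryo 77 it called 1. Of the 46 models that rose between the windows, 32 had means in rising order over the 4 hours (7.08% of all models tested did). Their median steps were 0.56, 0.99 and 0.40 on the log2 scale, and the step from 14 to 15 hpf, to which a contrast of the windows gives the most weight, was the largest in 32. Of the 11 that fell, 7 had means in falling order (10.5% of all models tested did), with median steps of −0.09, −0.95 and −0.38. Both groups were picked by a contrast of these same hours, which favours such orders. Their shares are therefore a description and no separate evidence of a steady change.

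The hourly means of the first principal component of log2 CPM, which held 18.9% of the variance, followed the order of the hours. They were −28.9 at 13 hpf, −3.52 at 14 hpf, 8.69 at 15 hpf and 18.6 at 16 hpf. The sign of the component was set so that the later window was higher. The embryos at 14 hpf (−16.2 to 8.43) overlapped those at 15 hpf (−1.77 to 27.9) and at 16 hpf (3.81 to 32.7), while the 3 at 13 hpf (−43.5 to −16.9) lay below all others. Embryo 69 at 13 hpf was only just below embryo 77 at 14 hpf, and the lowest was embryo 76, which had the fewest counts. Over all models tested, Pearson's r between embryos, a description across models that share a library, had a median of 0.901 among 18 pairs of the same hour, 0.901 at 1 hour apart, 0.894 at 2 hours and 0.873 at 3 hours. The ranges overlapped, with 0.878–0.920 at the same hour and 0.835–0.892 at 3 hours apart.

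**Figure D5:**
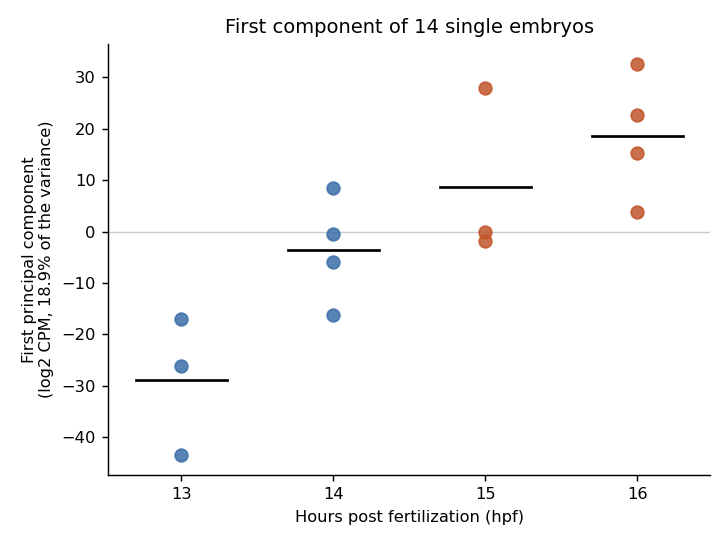
The first principal component of log2 CPM over the 6882 models tested, for each of the 14 embryos by hour (points, blue for 13–14 and orange for 15–16 hpf), with a bar at the mean of each hour. The embryos at 13 hpf are the lowest, and those at 14, 15 and 16 hpf overlap.

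The ends of the interval differed in more models and about equally in both directions. This contrast was not refitted with 1 embryo left out, so its dependence on single embryos is not known. Embryo 76, 1 of the 3 at 13 hpf, had the fewest counts (492757). From 13 hpf (3 embryos) to 16 hpf (4 embryos), 95 models rose (1.38%) and 98 fell (1.42%), with a median log2 fold change of 0.03 over all 6882. Among colloblast candidates 4 of 73 rose and 2 fell, and among tentacle candidates 2 of 45 rose and none fell. The 3 candidates that rose between the windows were called again, ML003220a with a log2 fold change of 1.67, ML14871a with 2.47 and ML16904a with 3.46 (adjusted p = 0.00448, 0.0371 and 0.0118).

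Further candidates passed by edgeR between these ends and not between the windows. The calcium-binding ML01571a had a mean of 15.9 ± 7.56 CPM (SD, n = 3) at 13 hpf and of 57.8 ± 20.2 CPM (SD, n = 4) at 16 hpf (2.05, adjusted p = 0.017 from edgeR). The glutaredoxin ML047916a rose by 1.42 (adjusted p = 0.0294) and ML223518a by 2.07 (adjusted p = 0.0317). Both models that fell belong to the larger colloblast cluster. The cytochrome P450 ML049021a was at 118 ± 17.1 CPM (SD, n = 3) at 13 hpf and 36.8 ± 13.7 CPM (SD, n = 4) at 16 hpf (−1.57, adjusted p = 0.0185 from edgeR). ML004415a, an immunoglobulin-like protein named here after its values were seen, was at 157, 207 and 166 CPM at 13 hpf and at 66.8, 91.9, 34.9 and 48.5 CPM at 16 hpf, with no overlap (−1.46, SE 0.33, adjusted p = 0.028 from edgeR). In this cluster 2 of 26 fell and none rose, the median was −0.48, and at an unadjusted p under 0.05, 9 were lower and 0 higher (9.42% and 9.11% of all models). In the smaller tentacle cluster 2 of 5 rose and the median was 1.72. Over all models 1.38% rose and 1.42% fell. The study formed both clusters on a time course that includes these embryos, so their direction is not independent evidence here either. Whether the changes from 13 to 16 hpf differ from those between the windows was not tested, as both use the same embryos.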

How the data were processed

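CEL-Seq libraries were made from whole single embryos of *M. leidyi*. Base calling used CASAVA 1.8, alignment Bowtie2 2.1.0 and counting HTSeq 0.5.4p3, per the submitters' processing notes. The authors deposited raw HTSeq counts for each protein model, without normalization. Not given in the sources used here are the genome build, the counting options and any collapsing of unique molecular identifiers, so reads may not be independent molecules and reads of near-identical copies may be split. The 5 HTSeq classes without a gene were kept out of totals and tests. In the 14 embryos 1.42–2.04% of reads were ambiguous, 15.6–19.7% of low quality and 56.7–62.6% not aligned, and 19.1–22.4% were counted. No column was left without a sample (0). No length was used, since CEL-Seq counts 3′ ends. Depth was 492757–2079694 counts, and a model at 10 CPM rests on few reads.

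The windows were compared with the quasi-likelihood F-test of edgeR 4.0.16 (TMM scaling; filterByExpr with a minimum count of 10 and minimum total of 15, R 4.3.3), with Benjamini-Hochberg adjusted p-values under 0.05 over all models. The common biological coefficient of variation was 0.331. Hour steps used 1 coefficient per hour. The alternatives tried were DESeq2 1.42.0, limma 3.58.1 (voom), RLE factors, no scaling factors, no filter, 1 coefficient per hour, all 29 embryos of the library group at 13–20 hpf, adding embryo 59 or 78, thinning, 13 against 16 hpf and leaving out each embryo. Principal components used log2 CPM with a prior count of 2. Summaries and plots used Python 3.11.15 with matplotlib 3.10.9. The scripts were tested on simulated data.

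Candidate lists hold the models for which the study's annotation table gives an InterProScan match, with or without an InterPro entry, plus cluster members. The complete lists were not used here. Lists are described by counts and medians, without a test. The reference table of gene names matched 0 identifiers. Named models are, by rule, up to 10 candidates per list that rose or fell, the 5 transcription factors, members of the adhesive, toxin, cnidocyte and cell C54 lists that passed, the 2 members with the smallest p of each family with at least 2 tested, the 3 with the highest mean CPM of each cluster, the 4 with the highest mean CPM per list that did not pass, and, from outside the lists, 2 risen and 2 fallen models by smallest p. The embryos and lists were chosen with earlier results of these data known.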

Additional observations from a re-analysis of the deposited data

Results flagged for a closer look

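In each window of 7 embryos, the gap between the most extreme embryo and its nearest neighbour was compared with the range (Dixon's ratio, at its 95% critical value) for the named models, the summed lists and measures of the libraries. Of 118 groups of values, 8 passed the limit (6.78%), and chance passes about 1 in 20. All 8 lie in the later window. Embryo 64 had 150 CPM of ML16904a (others 7.24–57.1 CPM) and a sum of 346 CPM in the smaller tentacle cluster, which holds that model (others 155–228 CPM). Embryo 72 had 233 CPM of ML07721a (others 44.6–118 CPM) and a sum of 974 CPM in the smaller colloblast cluster, which holds it (others 429–663 CPM). Embryo 85 had 481 CPM of ML150914a (others 72.5–239 CPM) and 5.43 CPM of ML01537a (others 14.7–19.7 CPM). Embryo 71 had the highest total, 1495537 counts (others 962576–1167022), and in embryo 86 the 10 models with most counts held 15.2% of the counts (others 9.43–11.6%).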

How the results depend on the processing

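All 57 models called kept their direction in every alternative that tested them, leaving out 1 embryo included. Between the windows, the counts of models that rose and fell were 126 and 38 with DESeq2 (81 and 19 at least 2-fold) and 95 and 98 for 13 against 16 hpf (81 and 78). With counts thinned to the lowest total 29 rose (24 at least 2-fold), 1 coefficient per hour gave 17 that fell, and all embryos at 13–20 hpf gave 7. Of the 57 models, 45 were tested with thinned counts and 35 were called again. Among the candidates only ML003220a was called there, so ML14871a and ML16904a were not. Leaving out 1 embryo gave 28–56 that rose (25–48 at least 2-fold), 4–19 that fell (4–16), and 0–3 changed from 13 to 14 hpf. Thinning leaves fewer counts, and leaving out 1 embryo leaves fewer embryos, but the cause of these shifts was not tested. With 1 embryo left out, the numbers went both below and above the 46 that rose and 11 that fell with none left out. ML14871a also lost its call with library size alone, without the filter and in the fit of all embryos at 13–20 hpf (adjusted p = 0.0533, 0.055 and 0.0765), and ML16904a with limma voom (0.202). Some models that did not pass changed sign. ML01383a was at 0.044 with 1 coefficient per hour, 0.053 in the fit of all embryos at 13–20 hpf and 0.39 for 13 against 16 hpf. ML01511a was at −0.039 with library size alone, −0.030 and −0.013 with embryo 59 or 78 added and −0.10 for 13 against 16 hpf. ML03672a was at −0.013 with limma voom and −0.11 for 13 against 16 hpf, ML056965a at 0.25 and ML148942a at 0.62 there. With embryo 59 added ML148942a was at 0.025 and ML273210a at −0.066, and with thinned counts ML15632a was at 0.0089. Leaving out 1 embryo gave −0.038 to 0.067 for ML01511a, −0.54 to 0.06 for ML07721a, −0.21 to 0.14 for ML148942a, −0.053 to 0.041 for ML15632a and −0.016 to 0.25 for ML273210a. No paired analysis was made, because the labels number each embryo on its own and give no replicate number shared between hours. The embryo numbers run through the hours repeatedly, but no source used here says that a run shares a spawning or a batch. A term for the run was not tried. Depth limits models of few counts: 6882 of 16548 could be tested.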
